A study of Drosophila melanogaster with 6 samples.

Results

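Chitin is a polymer of N-acetylglucosamine that insects lay down in the cuticle, in the lining of the tracheal tubes and in the peritrophic matrix of the midgut. A membrane-bound synthase makes the chains, deacetylases remove acetyl groups from them, chitin-binding proteins order them into a matrix, and chitinases cut them. The genes described here are those annotated to these steps among the genes that the authors listed as differing between adult flies mutant for the nuclear receptor DHR96 and their controls.

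Members were the probe sets in the authors' deposited table of that comparison whose biological process or molecular function terms contain "chitin" or "peritrophic". Probe sets with a structural constituent of cuticle term were left out. The rule found 15 probe sets, 1 for each of 15 genes, among the 260 probe sets of the deposited table and the 18769 probe sets of the array that are not manufacturer's controls. They comprise the chitin synthase gene kkv, 4 chitinase genes (Cht5, Cht6, Cht7 and Cht9), 4 chitin deacetylase genes (serp, verm, Cda4 and Cda5), 4 genes of chitin-binding proteins (obst-A, obst-B, Gasp and Peritrophin-A) and 2 others, the pigmentation gene yellow (y) and CG33173. By the roles assigned here, the label of chitin synthesis, binding and modification covers 13 of the 15. Yellow entered through a single term, adult chitin-based cuticle development. CG33173 carries the terms chitin metabolic process and chitin binding beside terms for an ATP-binding cassette transporter. By its terms alone CG33173 would also fall under the label. CG33173 is given as an older name of both CG43672 and CG43673 in the RefSeq gene table (Release 6 of the fly genome), so its probe set was not tied to either.

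Adult Drosophila melanogaster had been aged on standard food for 7 days, and total RNA of whole flies was labelled with biotin for hybridisation to Affymetrix arrays. There were 3 arrays labelled DHR96 mutant (mutant arrays in what follows) and 3 arrays of Canton S, a wild-type strain, which the series calls genetically matched. The allele and the sex of the flies are not given in the sources used here, nor is it stated that replicates were separate batches of flies, so the spread between them may be technical. In RNA from whole animals, fewer cells of a type and less RNA per cell cannot be told apart.

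The values are linear intensities that the authors had normalized between arrays, with array medians from 474 to 488 and a lowest value on any array of 97.2, so the background was not taken to 0. The probe set of the targeted gene, DHR96 (Hr96), read 977, 985 and 928 on the mutant arrays and 527, 498 and 546 on the Canton S arrays. It was higher where the labels name the mutant, and with no allele given this does not check the labels, on which the direction of every difference rests. The poly-A spike-in controls, added to the RNA before labelling, set 2 arrays apart: the Dap 3' control read 473 and 519 on mutant replicates 2 and 3, against 1217 on mutant replicate 1 and 1188, 1208 and 1007 on the Canton S arrays. The ratio of 3' to 5' control signal, a sign of RNA quality, was higher on all mutant arrays for GAPDH, at 1.353, 1.424 and 1.358 on the mutant arrays and 1.309, 1.349 and 1.299 on the Canton S arrays. For actin it lay between 2.31 and 2.61 on the mutant arrays and between 2.23 and 2.37 on the Canton S arrays, and for eIF-4a between 2.27 and 2.70 on the mutant arrays and between 2.21 and 2.51 on the Canton S arrays, so that the groups overlapped for both. The part of RNA quality in the differences between the groups was not tested.

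The deposited table was itself drawn from these 6 arrays, so every difference between the groups given here had already selected the genes. The differences are descriptions and carry no test. The listed folds in the authors' deposited table were all at least 1.301 in size and its q-values at most 2.181%. Of the 15, those nearest to the limit in fold were Cht6 at 1.363 and, in the lower direction, CG33173 at 1.369 in size. The farthest was Cht5 at 2.286. Yellow lay at the limit in q-value, at 2.181%. Probe sets just outside these limits are not named in the sources used here, so no chitin-related gene outside them can be given.

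Of the 15 genes, 13 were higher and 2 lower on the mutant arrays than on the Canton S arrays, with a median log2 difference of 0.63, or 1.54-fold. The deposited table itself held more higher than lower probe sets, 180 against 80 of its 260. Over all probe sets 9257 were higher and 9512 lower. Differences are mutant minus Canton S on the scale of log2(intensity + 16) throughout. The median over all 18769 probe sets was -0.0015, and over the 180 probe sets listed as higher it was 0.54. The 3 mutant values did not overlap the 3 Canton S values for any of the 15 genes. Among all probe sets the groups did not overlap for 13.9% in the higher and 17.0% in the lower direction. In the fit of limma across all probe sets, with Benjamini-Hochberg adjustment and a threshold of 0.05, 12 of the 13 higher genes passed, where 3.29% of all probe sets were called higher, and both lower genes passed, where 3.67% were called lower. The gene that did not pass was yellow. With Canton S replicate 1 left out, 9 of the 15 passed in limma, beside 287 of the 18769 probe sets. A term for the 2 arrays of low spike-in signal leaves the single mutant replicate 1 against Canton S, and with it 0 of the 15 passed in limma, beside 31 of all probe sets, and all 15 had an unadjusted p under 0.05, beside 1987 of all probe sets. Since the genes were selected on this comparison, these counts are not read further.

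**Figure D1:**
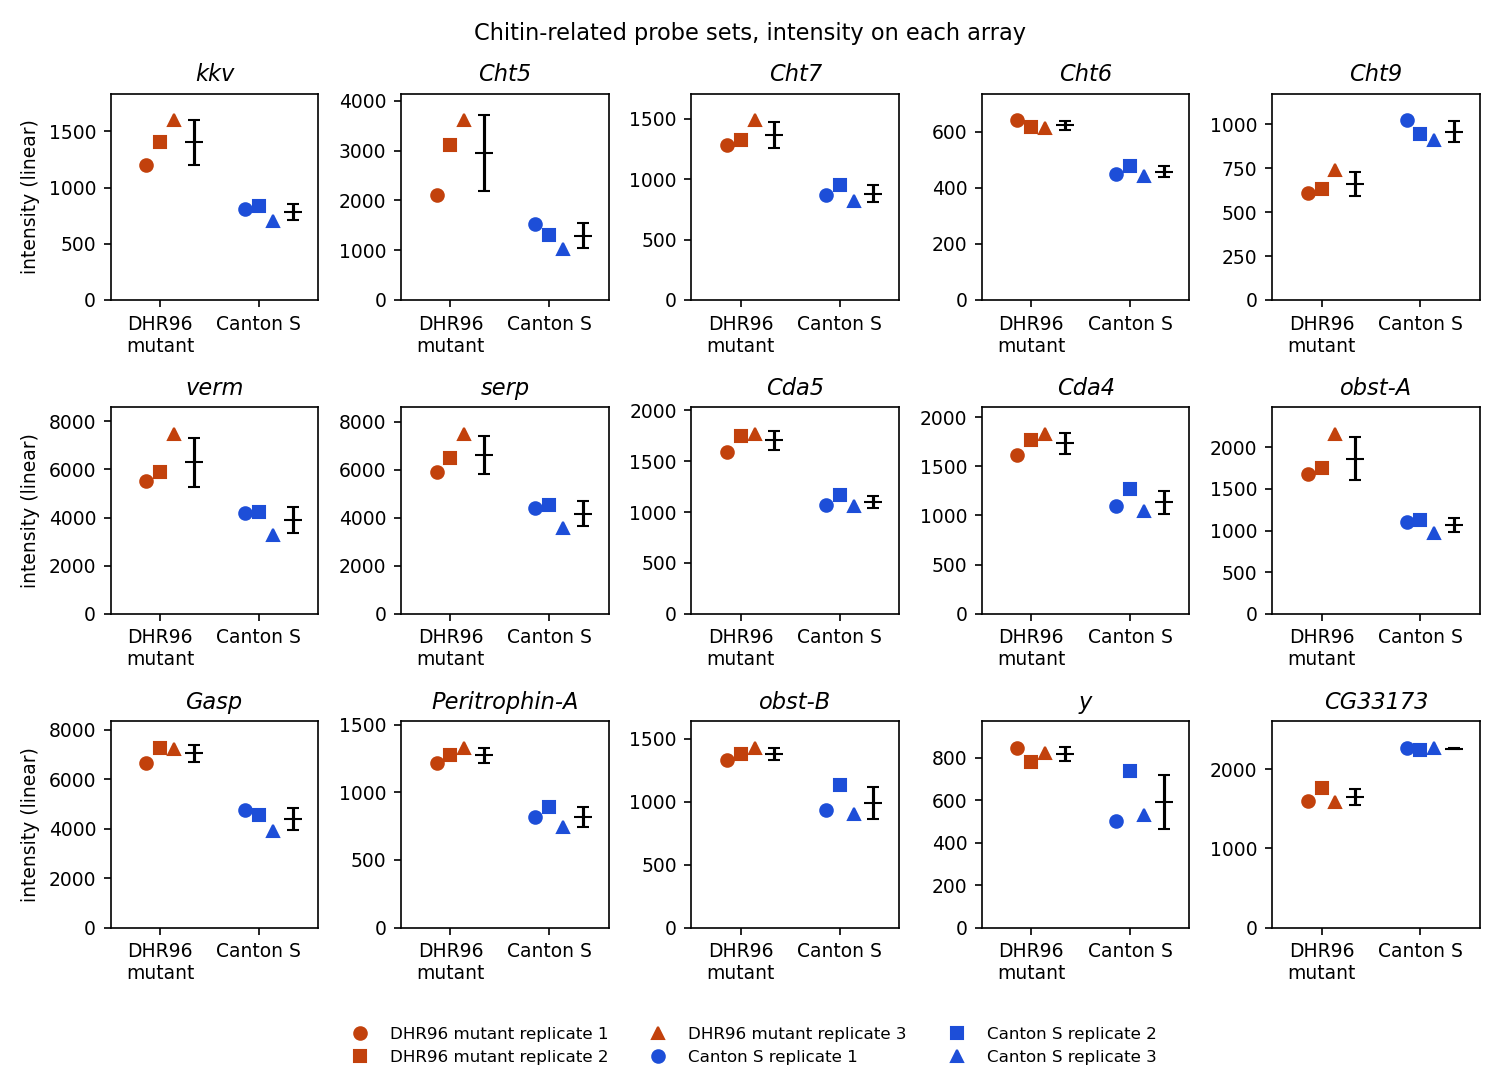
Linear intensity (vertical axis, from 0) of the 15 chitin-related probe sets on each of the 6 arrays, with the 3 DHR96 mutant arrays left and the 3 Canton S arrays right in each panel; the black bar beside each group is the mean ± SD (n = 3). In 13 panels all mutant points lie above all Canton S points, and in the panels of Cht9 and CG33173 all lie under them.

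The synthase gene kkv (krotzkopf verkehrt, CG2666) encodes the enzyme that makes the chitin of the cuticle and the tracheae. It read 1199, 1410 and 1598 on the mutant arrays and 811, 838 and 701 on the Canton S arrays. All 3 mutant values were above the highest Canton S value, and the lowest of them, in replicate 1, was closest to it. The means were 1402 ± 200 in the mutant and 783 ± 72.2 in Canton S (SD, n = 3 each), a log2 difference of 0.82 (SE 0.141), or 1.77-fold. This was the second largest difference of the 15. Of the 8 genes in a list of chitin precursor and synthesis enzymes (kkv, Chs2, mmy, Gfat1, Gfat2, nst, Gnpnat and Pgi), kkv was the 1 in the deposited table. The others are not analysed here, since the files name only the probe sets of that table.

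The chitinases showed the widest range of the role groups. Cht5 (CG9307) encodes an enzyme of the chitinase family that cleaves chitin within its chains, and had the largest difference of all 15 genes. It read 2118, 3123 and 3608 on the mutant arrays and 1525, 1315 and 1030 on the Canton S arrays. The groups did not overlap, but mutant replicate 1 stood nearer to the Canton S arrays than to mutant replicate 3. The means were 2950 ± 760 and 1290 ± 248 for mutant and Canton S (SD, n = 3 each), a log2 difference of 1.17 (SE 0.280), or 2.24-fold. On mutant replicate 1 alone, where the spike-in controls read as in Canton S, the difference from the Canton S mean was 0.73. The part of the spike-in difference in this result was not tested.

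Cht7 (CG1869), another chitinase gene, had intensities of 1287, 1325 and 1488 in the mutant, against 867, 955 and 819 in Canton S. Its log2 difference was 0.63 (SE 0.0897). Cht6, listed in the files under its older name CG2989, had 641, 616 and 614 in the mutant and 451, 480 and 441 in Canton S. The spread of Cht6 between arrays was the smallest of the 15 (pooled SD 0.049 on the log2 scale), and its log2 difference was 0.43 (SE 0.0400). Here mutant replicate 1 was the highest of the mutant arrays, unlike in Cht5 and Cht7.

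Cht9 (CG10531) was the chitinase gene that differed in the other direction. It read 607, 633 and 738 on the mutant arrays and 1023, 948 and 908 on the Canton S arrays. Every mutant value lay under every Canton S value, with mutant replicate 3 and Canton S replicate 3 the nearest pair. The means were 659 ± 69.2 in the mutant and 960 ± 58.1 in Canton S (SD, n = 3 each), a log2 difference of -0.53 (SE 0.0969), or 1.45-fold higher in Canton S. The deposited table thus held chitinase genes of both directions, 3 higher and 1 lower. These 4 were the ones present of a list of 20 chitinases, related lectins and hexosaminidases.

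All 4 chitin deacetylase genes were higher on the mutant arrays, within a narrow range of log2 differences from 0.61 to 0.69. The list of chitin deacetylases held 6 genes, and serp, verm, Cda4 and Cda5 were those in the deposited table. Serpentine (serp, CG32209) and vermiform (verm, CG8756) encode secreted deacetylases that limit the length of tracheal tubes. Serp had intensities of 5919, 6492 and 7479 in the mutant and 4391, 4549 and 3585 in Canton S. Verm had intensities of 5536, 5889 and 7460 in the mutant and 4185, 4246 and 3272 in Canton S. In both genes mutant replicate 3 stood above and Canton S replicate 3 under the other arrays of its group. The log2 differences were 0.67 (SE 0.145) for serp and 0.69 (SE 0.178) for verm.

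Cda5 (CG31973) read 1596, 1752 and 1766 on the mutant arrays and 1071, 1172 and 1056 on the Canton S arrays, a log2 difference of 0.63 (SE 0.0657). Cda4 (CG32499) read 1614, 1762 and 1826 on the mutant arrays and 1092, 1265 and 1046 on the Canton S arrays, a log2 difference of 0.61 (SE 0.0973). Both belong to the chitin deacetylase family by sequence, and in the deposited table they carry chitin-binding terms. Their spread was smaller than that of serp and verm, with pooled SDs on the log2 scale of 0.081 for Cda5 and 0.119 for Cda4, against 0.177 for serp and 0.219 for verm.

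The 4 genes grouped here as chitin-binding proteins were also all higher in the mutant, with log2 differences from 0.48 to 0.79. CG33173, grouped apart from them, carries a chitin binding term as well and was lower, at -0.45. The 4 were those present of a list of 20 chitin-binding and matrix-organising genes, which also held knk, rtv and 6 further obstructor genes. Obst-A (CG17052) encodes a protein that organises the newly made chitin matrix of the cuticle. It read 1675, 1754 and 2158 on the mutant arrays and 1098, 1132 and 966 on the Canton S arrays. The log2 difference was 0.79 (SE 0.131), or 1.73-fold, after Cht5 and kkv the largest of the 15, and the gap between the nearest values of the groups was the widest of all, at 0.56 on the log2 scale.

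Gasp (CG10287), a chitin-binding protein of the tracheal lumen, had intensities of 6650, 7269 and 7237 in the mutant and 4769, 4546 and 3918 in Canton S. Its log2 difference was 0.68 (SE 0.0948). Peritrophin-A (CG17058, also called obst-D) had intensities of 1217, 1271 and 1326 in the mutant and 818, 888 and 741 in Canton S, a log2 difference of 0.63 (SE 0.0824). Its probe set ends in _s_at, the manufacturer's mark for probes shared by several transcripts, which may come from different genes. Obst-B (CG4778) had intensities of 1329, 1378 and 1427 in the mutant and 930, 1136 and 904 in Canton S. Its log2 difference of 0.48 (SE 0.106) was the smallest of these 4, and Canton S replicate 2 lay apart from the other Canton S arrays, towards the mutant values. In the deposited table all 4 carry the term structural constituent of peritrophic membrane, given there from sequence similarity.

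Yellow (CG3757) encodes a secreted protein needed for dark pigment of the cuticle. It read 846, 781 and 821 on the mutant arrays and 503, 738 and 531 on the Canton S arrays. Canton S replicate 2 came close to the mutant arrays, and the gap between the nearest values was the narrowest of the 15, at 0.081 on the log2 scale. The log2 difference was 0.48 (SE 0.171). It was 0.64 with Canton S replicate 2 left out, 0.37 with Canton S replicate 1 left out and 0.41 with Canton S replicate 3 left out. The authors' deposited table gives it the highest q-value of the 15, 2.181%.

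CG33173 was, with Cht9, the other gene that was lower in the mutant. It read 1601, 1766 and 1583 on the mutant arrays and 2267, 2247 and 2262 on the Canton S arrays. The 3 Canton S values were nearly the same, and all 3 mutant values lay well under them. The means were 1650 ± 101 in the mutant and 2259 ± 10.1 in Canton S (SD, n = 3 each), a log2 difference of -0.45 (SE 0.0497), or 1.37-fold higher in Canton S.

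**Figure D2:**
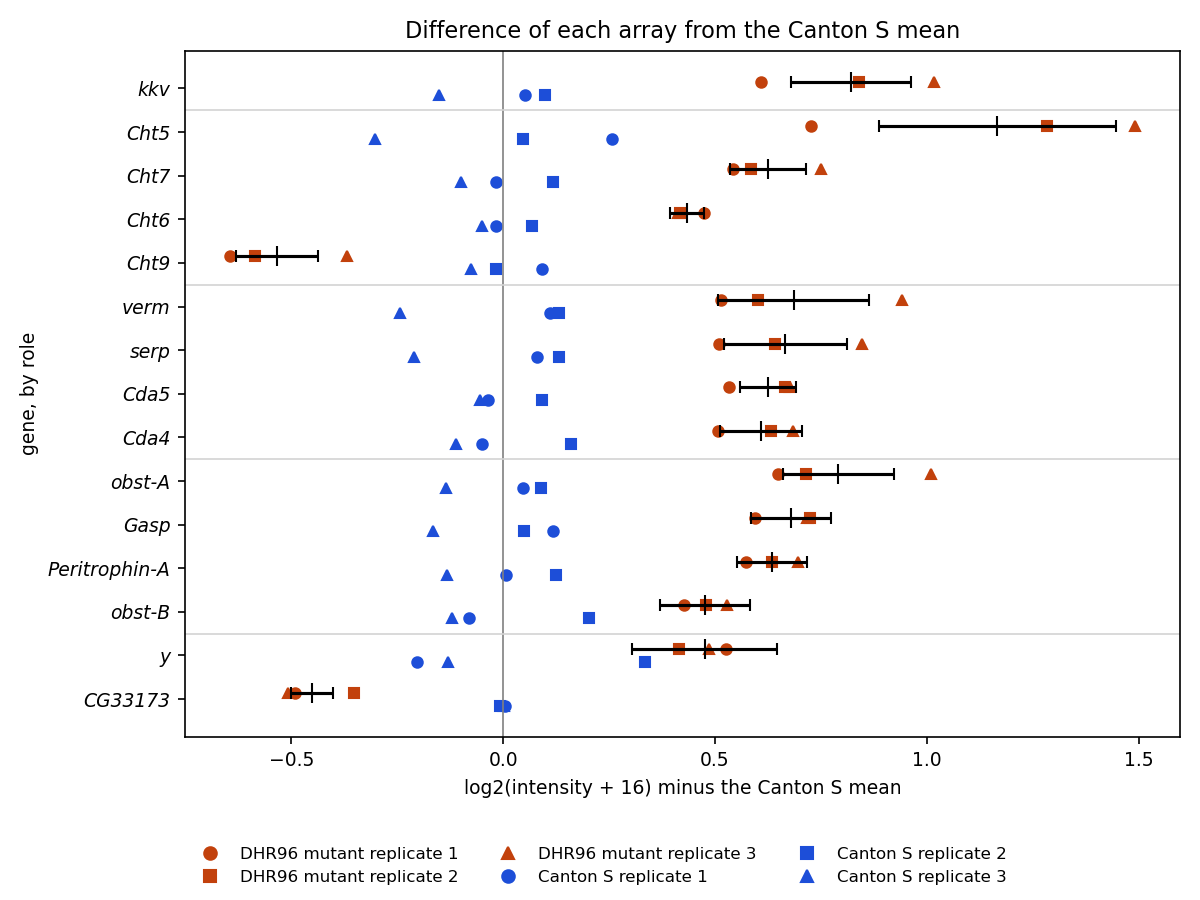
Each array's log2(intensity + 16) minus the mean of the 3 Canton S arrays (horizontal axis) for the 15 genes, ordered by role with lines between the roles; in each row the 3 DHR96 mutant arrays are drawn above the 3 Canton S arrays, and the black bar is the mean difference ± SE (n = 3 each). The 4 deacetylase genes lie between 0.61 and 0.69, Cht5 has the widest spread of mutant arrays, and Cht9 and CG33173 lie left of 0.

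Beyond the direction of the difference, most of the genes shared an order of arrays within each group. In the mutant, replicate 1 had the lowest value for 12 of the 15 genes and replicate 3 the highest for 11. In Canton S, replicate 3 had the lowest value for 13 of the 15 and replicate 2 the highest for 11. Over all 18769 probe sets, mutant replicate 1 was the lowest of its group for 27.5% and replicate 3 the highest for 32.7%, and Canton S replicate 3 was the lowest for 44.6% and replicate 2 the highest for 37.9%. Among the 180 probe sets listed as higher, mutant replicate 1 was the lowest for 61.7% and replicate 3 the highest for 57.8%. In the same 180, Canton S replicate 3 was the lowest for 71.7% and replicate 2 the highest for 55%, so these orders are not particular to the chitin-related genes. Both orders together were seen in 9 of the 15 genes, in 25.6% of the 180 probe sets listed as higher, and in 4.02% of all probe sets.

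All 9 genes with both orders were among the 13 that were higher in the mutant. Cht9, which was lower in the mutant, shared the order in part: its lowest mutant value was in replicate 1, its highest in replicate 3 and its lowest Canton S value in replicate 3, but its highest Canton S value was in replicate 1. CG33173 did not share it: its lowest mutant value was in replicate 3 and its lowest Canton S value in replicate 2. Cht6 and yellow were highest in mutant replicate 1. The median deviation of the 15 genes from their own group mean was -0.093, 0.00061 and 0.076 on the log2 scale for mutant replicates 1, 2 and 3, and 0.0076, 0.099 and -0.13 for Canton S replicates 1, 2 and 3.

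**Figure D3:**
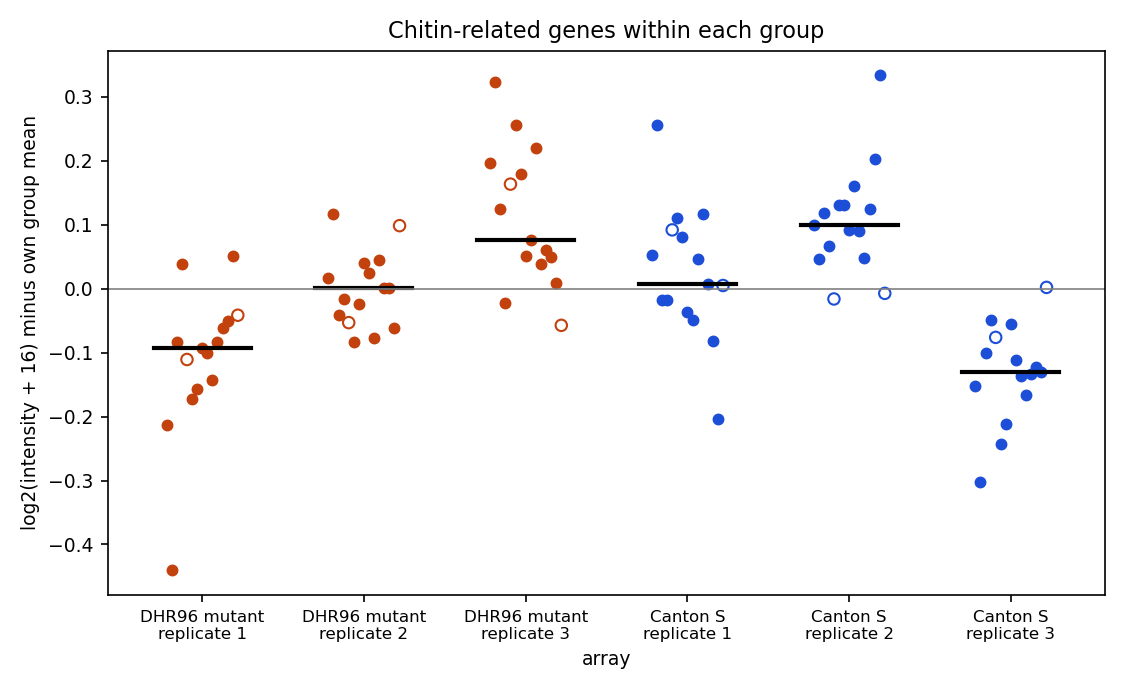
Deviation of each of the 15 genes from the mean of its own group, in log2(intensity + 16) (vertical axis), on each of the 6 arrays; filled points are the 13 genes higher in the mutant, open points Cht9 and CG33173, and black lines medians. Points lie mostly under 0 on mutant replicate 1 and Canton S replicate 3, and mostly above 0 on mutant replicate 3 and Canton S replicate 2.

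The spread between the arrays of a group was wider for these genes than for the median probe set. The pooled SD within groups had a median of 0.119 on the log2 scale for the 15 genes, 0.116 for the 180 probe sets listed as higher and 0.061 for all probe sets. It was largest for Cht5, at 0.343. Mutant replicate 3, where 11 of the 15 genes read highest of the mutant arrays, is 1 of the 2 arrays of low spike-in signal. The other, mutant replicate 2, read highest for 2 of the 15, as did replicate 1. Canton S replicate 3, where most read lowest, had the lowest Dap signal of the Canton S arrays. The part of the spike-in difference in these deviations was not tested. On mutant replicate 1 alone, the 13 higher genes were above the Canton S mean by 0.43 to 0.73 on the log2 scale, with a median of 0.53. Their direction on this array was fixed, since the groups do not overlap for these genes. The medians of the same 13 genes were 0.63 on mutant replicate 2 and 0.72 on replicate 3.

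Some of the genes lie side by side in the genome. Verm and serp are neighbours with 0 protein-coding genes between them in the Release 6 gene table, and so are obst-A and Peritrophin-A. Both genes of each pair were higher in the mutant, with log2 differences of 0.69 and 0.67 for verm and serp and of 0.79 and 0.63 for obst-A and Peritrophin-A. Every other pair of placed genes that follows each other on a chromosome had at least 99 protein-coding genes between them. CG33173 was not placed, since its name was not tied to a single gene.

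The 9 probe sets with a chitin term that the rule set aside as structural cuticle genes were likewise all higher in the mutant. The median log2 difference was 0.63 for the 15 chitin-related genes and 0.74 for these 9 probe sets. These were selected on the same arrays too. Mutant replicate 1 was the lowest of its group for 7 of these 9 and Canton S replicate 3 for 8 of them.

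Genes of the fat body and the midgut were read in the deposited table too. All 5 listed larval serum and fat body genes of a list of 6 (Lsp1beta, Lsp1gamma, Lsp2, Fbp1 and Fbp2) were higher in the mutant. Of 6 listed midgut protease genes of a list of 11, 5 were lower and 1, Ser8, was higher (log2 difference 0.72). The summed intensity of the larval serum and fat body genes ranged from 9847 to 14623 on the mutant arrays and from 4565 to 5505 on the Canton S arrays. That of the midgut proteases, Ser8 included, ranged from 14821 to 18832 on the mutant arrays and from 26305 to 28597 on the Canton S arrays. The larval serum set had its lowest mutant median, 0.81 on the log2 scale, on replicate 1 and its highest, 1.65, on replicate 3, as the chitin-related genes did. The part of a difference in tissue content in the values of the chitin-related genes was not tested.

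**Figure D4:**
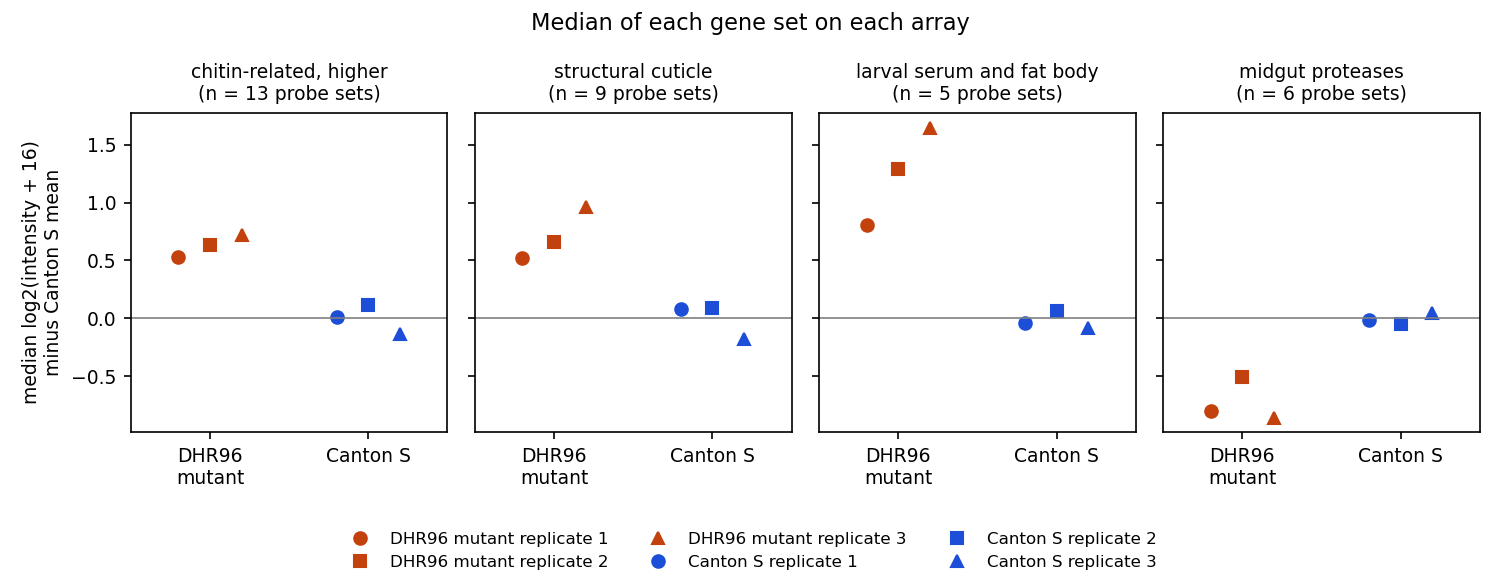
Median over the genes of a set of log2(intensity + 16) minus the Canton S mean (vertical axis), on the 3 DHR96 mutant arrays (left in each panel) and the 3 Canton S arrays, for the 13 higher chitin-related genes, the 9 structural cuticle probe sets, 5 larval serum and fat body genes and 6 midgut proteases. The chitin-related medians are 0.53, 0.63 and 0.72 on mutant replicates 1, 2 and 3, and the larval serum medians 0.81, 1.29 and 1.65.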

How the data were processed

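The deposited values are linear intensities of 18952 probe sets on 6 arrays, normalized between arrays by the authors by an unstated method; MAS5 is named in the submitters' processing notes, without a version. Per the file headers, the authors' deposited table covers 260 probe sets in 286 rows and holds a log2 difference (the SAM numerator), the SAM score with the denominator it was divided by, the fold with a sign, and the q-value as a percent. The numerator equalled the mean log2 difference, mutant minus Canton S, within 5.68e-10. The 183 control probe sets were set aside. limma 3.58.1 in R 4.3.3 (lmFit, eBayes with an intensity trend) was fitted to log2(intensity + 16) with group as the only term. The code was run on simulated data with independent noise for each probe set and array. That run cannot speak to deviations that many genes share on an array. SDs and SEs came from the 3 arrays of each group, whose number limits the precision.

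Gene names came from matching the table's CG numbers to the RefSeq gene table of Release 6: of the 15, 13 matched by CG number, 1 by an older CG number and 1 kept the file's name. No coordinates are given, since no source used here names the files' build. Every member gene was named. The members and the gene lists were chosen with earlier results of these data known. Alternatives were other scalings, pseudocounts, variance models, a filter on dim probe sets, each array left out, the replicate number as a block and a term for the 2 arrays of low spike-in signal.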

Additional observations from a re-analysis of the deposited data

How the results depend on the processing

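Under all 15 alternatives run, 13 of the 15 chitin-related genes were higher in the mutant and 2 lower. The groups do not overlap for these genes, which fixes this for arrays left out, the pseudocounts and the spike-in term. The variance models, the filter on dim probe sets and the replicate block leave the differences unchanged. Median centring shifts every difference by the same amount. With array medians from 474 to 488 that shift was too small to change a direction, and it took the median of the 15 from 0.625 to 0.616. Only quantile normalization could have changed a direction. The median log2 difference of the 15, 0.63, ranged from 0.56 to 0.69 with an array left out and from 0.53 to 0.64 otherwise. Of 225 single-gene differences, 222 moved by less than the gene's SD between replicates, pooled over the groups. Most of these were fixed beforehand and say nothing about stability. The settings that leave the differences unchanged cannot move them, and leaving out an array cannot move a difference by as much as that SD. The shift of median centring was also smaller than the smallest of these SDs, 0.049. Only quantile normalization, the pseudocounts and the spike-in term could have moved a difference that far. The differences of kkv, Cht5 and Cda5 moved further, to 0.61, 0.73 and 0.53, with the term for low spike-in arrays. That term leaves mutant replicate 1 against Canton S. Of all probe sets, 1306 passed limma's threshold, 47.2% of them higher (617 against 689 lower). Quantile normalization gave 57.6% higher (630 against 463). Without the intensity trend 813 passed, with an array left out 287 to 803, and with the spike-in term 31. Of the 15 genes, 14 passed. With an array left out 9 to 14 did, the lowest without Canton S replicate 1, and with the spike-in term 0 did in limma. With that term all 15, and 1987 of the 18769 probe sets, had an unadjusted p under 0.05, from a single mutant array and on genes selected by this comparison. The replicate number as a block gave 240 probe sets and 7 of the 15 genes. The numbers do not pair the samples: deviations of same-numbered arrays correlated at 0.19, -0.22 and -0.24, and 2 of 6 arrays correlated best with their own number. Counting probe sets singly was not run, since each gene has 1. Signal near the background, which is not taken to 0, may understate differences of dim probe sets.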
